A study of Mus musculus with 40 samples.

Results

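Glycerol enters liver metabolism through a short route of channels and enzymes, and 6 of its genes were followed here in mouse liver: the glycerol channels Aqp3, Aqp7 and Aqp9, the glycerol kinase Gk, and the glycerol-3-phosphate dehydrogenases Gpd1 and Gpd2. The members were found by symbol, and all 6 were present among the 40594 genes that both deposited count tables list. RNA was sequenced from the livers of 40 male C57BL6/J mice, 8 groups of 5, aged 5 months after 3 months of feeding. Wild-type (WT) mice and mice that lack PPARγ in the liver (KO, from PPARγ-loxP mice bred to Alb-Cre, whose Cre follows the albumin promoter of hepatocytes) were fed a control or a high-fat diet (HFD), and in each case without or with pioglitazone (groups control, Pio, HFD and HFD-Pio). Pioglitazone (Pio) is a thiazolidinedione drug and an agonist of the nuclear receptor PPARγ. It was 0.01% of the diets that held it, and 60% of the calories of the HFD came from fat. The WT mice were C57BL6/J mice that are not described as carrying loxP or Cre. Each genotype has its own count table, which means that effects of genotype and of table cannot be told apart. Levels were therefore compared within a genotype only, with the size of an effect then compared between genotypes.

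Glycerol released by fat tissue crosses membranes through aquaglyceroporins, of which Aqp9 is the channel of hepatocytes, Aqp7 that of adipocytes and Aqp3 one of skin and kidney. Inside the hepatocyte, glycerol kinase turns glycerol into glycerol-3-phosphate, the backbone of triglycerides. The cytosolic enzyme Gpd1 interconverts glycerol-3-phosphate and dihydroxyacetone phosphate with NADH, and Gpd2, on the inner membrane of mitochondria, oxidizes glycerol-3-phosphate and passes the electrons to the respiratory chain. Together the dehydrogenases form the glycerol phosphate shuttle, and they join glycerol to gluconeogenesis, glycolysis and lipid synthesis.

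In GENCODE M21 on GRCm38, Aqp3 (ENSMUSG00000028435) lies on chromosome 4 from 41092722 to 41098183 and Aqp7 (ENSMUSG00000028427) on the same chromosome from 41033074 to 41048139, both on the minus strand. Aqp9 (ENSMUSG00000032204) spans 71110659 to 71168682 of chromosome 9 and Gk (ENSMUSG00000025059) 85701937 to 85776819 of chromosome X, also on the minus strand. Gpd1 (ENSMUSG00000023019) spans 99717515 to 99725005 of chromosome 15 and Gpd2 (ENSMUSG00000026827) 57237635 to 57370719 of chromosome 2, on the plus strand. An exon of Gm14764 overlaps an exon of Gk on the opposite strand, as do Gm16537 for Gpd1 and A930012O16Rik for Gpd2. The strand setting of the counting is not given in the sources used here, so reads of these partners cannot be told apart from antisense reads. The paper counted only unambiguous reads, so reads in the shared stretches may be missing from both genes. The totals that follow do not measure such a loss. Over the 40 libraries Gm14764 held 41 reads against 63310 of Gk, Gm16537 held 44 against 529500 of Gpd1, and A930012O16Rik held 376 against 58875 of Gpd2. The close relatives Gk2 and Gykl1 held 0 and 3 reads, and Gpd1l, a relative of Gpd1, held 33190.

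Libraries held 15789401 to 49860981 counts in WT mice and 21542958 to 28334251 in KO mice. Counts were scaled by trimmed mean of M values (TMM) to CPM, reads of a gene relative to the library's scaled total, and the 12942 genes with 1 CPM or more in 5 or more mice were tested. Over all treatments, Pparg itself ranged from 5.79 to 14.2 CPM in WT and from 3.01 to 9.90 CPM in KO livers. These ranges overlapped, as they did within control and within HFD-Pio mice. On Pio they did not, at 10.8 to 14.2 CPM in WT and 3.01 to 6.57 CPM in KO mice. Nor did they on HFD, where the lowest WT mouse held 9.01 CPM and the highest KO mouse 8.53 CPM. The KO median was below the WT median in each treatment. Whether genotype or table sets these gaps cannot be told apart. The deletion covers part of the gene in hepatocytes, and a total over the gene does not check it. Liver identity was plain, with 6 of 6 hepatocyte markers tested and their summed level between 32067 and 143903 CPM. The library of KO Pio mouse 13 stood apart, with a median correlation of 0.788 with its own group, and it held the lowest hepatocyte sum. The next lowest correlation was 0.935, in WT control mouse 832. Calls between 2 groups that change without mouse 13 are given below with and without it.

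Of the 6 members, 4 passed the filter: Aqp9, Gk, Gpd1 and Gpd2. Aqp3 and Aqp7 were too low to test. Per kilobase of exon, averaged over the 40 mice, Gpd1 stood at 176 CPM per kb, which ranked 236 among 12927 tested genes with an exon length, and Aqp9 at 73.9 CPM per kb, rank 533. Gpd2 stood at 8.80 CPM per kb and Gk at 8.00 CPM per kb, ranks 3348 and 3614. The liver thus held the channel and the cytosolic dehydrogenase at high levels and the kinase and the mitochondrial dehydrogenase at lower ones. In WT control mice the order was Gpd1 at 138 ± 32.5, Aqp9 at 48.8 ± 9.29, Gpd2 at 7.96 ± 0.771 and Gk at 3.82 ± 0.903 CPM per kb (SD, n = 5). In WT HFD-Pio mice the means were 288 ± 65.4, 73.5 ± 6.22, 10.6 ± 2.50 and 6.82 ± 0.627 CPM per kb in the same order.

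**Figure D1:**
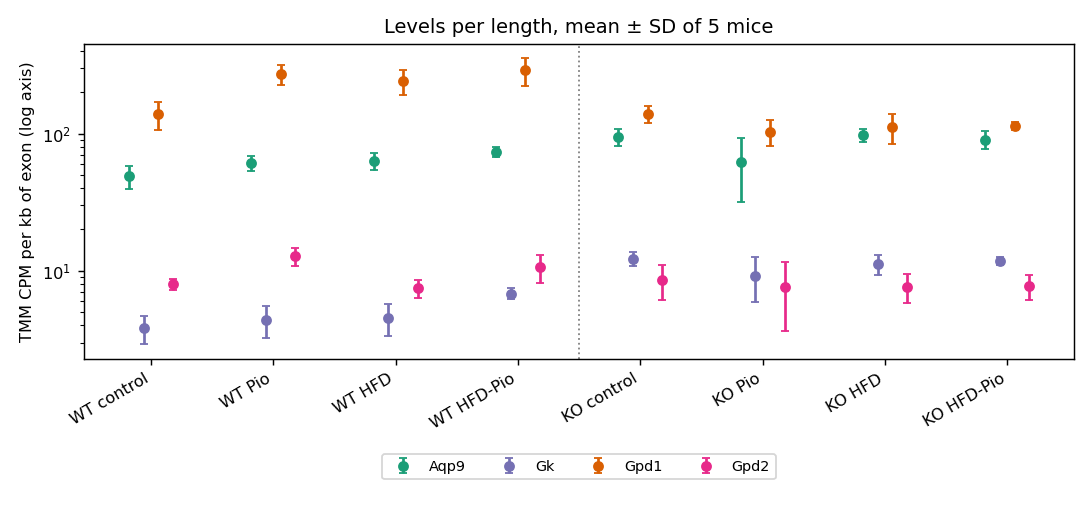
Level of the 4 tested genes in TMM CPM per kilobase of exon on a log axis, as the mean of 5 mice with SD, for the 8 groups. The dotted line separates WT from KO groups, which come from separate count tables. Gpd1 and Aqp9 sit above Gpd2 and Gk in every group, for example at 138 and 48.8 against 7.96 and 3.82 CPM per kb in WT control mice.

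Gpd1, the cytosolic dehydrogenase, rose with Pio and with HFD in WT livers, and it was the only member called in any comparison of 2 groups by edgeR's quasi-likelihood test at an adjusted p of at most 0.05. WT control mice measured 548, 284, 378, 393 and 443 CPM and WT Pio mice 763, 803, 629, 814 and 1007 CPM. Every Pio mouse was above every control mouse, and how many of all tested genes separate in this way was not counted. The means were 803 ± 136 and 409 ± 96.4 CPM (SD, n = 5), a log2 fold change of 0.97 with a standard error of 0.19 (edgeR adjusted p = 0.00195). The exact permutation test of 5 mice against 5, two-sided, gave p = 0.00794, the smallest it can give, and of all tested genes 3.91% were called in this comparison and 2.44% as higher. The call held in each of 45 alternatives, with adjusted p from 2.52e-05 to 0.00979.

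On HFD alone Gpd1 was also higher. WT HFD mice measured 780, 506, 677, 909 and 698 CPM, and 4 of 5 were above every control mouse. The log2 fold change of HFD against control diet was 0.80 with a standard error of 0.19 (edgeR adjusted p = 0.0218; exact permutation p = 0.0159), where 1.31% of all tested genes were called and 0.595% as higher. This call was lost when WT control mouse 832 (0.69 on the log2 scale), WT control mouse 833 (0.76), WT HFD mouse 828 (0.81) or WT HFD mouse 829 (0.70) was left out and when the filter on low counts was dropped (0.76, edgeR adjusted p = 0.0689).

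Adding Pio to HFD moved Gpd1 by less than the spread. WT HFD-Pio mice measured 985, 1106, 734, 823 and 621 CPM, a range that overlaps those of the Pio and the HFD groups. The log2 fold change was 0.26 against HFD (standard error 0.19, edgeR adjusted p = 0.538) and 0.09 against Pio (standard error 0.19, edgeR adjusted p = 0.892). In order of level, WT control mice were thus lowest, and the HFD, Pio and HFD-Pio groups were not separated from each other. The Pio effect on HFD minus that on control diet was -0.72 on the log2 scale (standard error 0.27), which did not pass the test (unadjusted p = 0.0108, edgeR adjusted p = 0.251; 0.0773% of all tested genes were called).

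In KO livers Gpd1 did not rise with either treatment. KO control mice measured 413, 352, 456, 479 and 361 CPM and KO Pio mice 299, 242, 246, 393 and 353 CPM, with 3 of 5 Pio mice below every control mouse. The log2 fold change was -0.43 (standard error 0.19, edgeR adjusted p = 0.133; exact permutation p = 0.0397), and -0.34 without mouse 13 (standard error 0.19, edgeR adjusted p = 0.559). KO HFD mice measured 385, 354, 405, 200 and 312 CPM and KO HFD-Pio mice 303, 351, 329, 342 and 361 CPM, and HFD against control gave -0.32 (standard error 0.19, edgeR adjusted p = 1.00).

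The difference between the genotypes in the Pio effect on Gpd1 was itself tested. On control diet the effect in KO minus that in WT mice was -1.40 on the log2 scale with a standard error of 0.27 (edgeR adjusted p = 0.00280), in a contrast that called 7.87% of all tested genes and 2.49% as lower. Without mouse 13 it was -1.33 (edgeR adjusted p = 0.00257), with 5.7% of all tested genes called. On HFD the same difference was -0.23 (standard error 0.27, edgeR adjusted p = 0.942), where 0.0927% of all tested genes were called. For the HFD effect without Pio, KO minus WT was -1.12 (standard error 0.27, edgeR adjusted p = 0.0821, with 0.0618% of all tested genes called), and this difference was called without mouse 13 (-1.09, edgeR adjusted p = 0.0309, 1.05% of all tested genes), by DESeq2 (-1.12) and by limma with sample weights (-0.91).

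**Figure D2:**
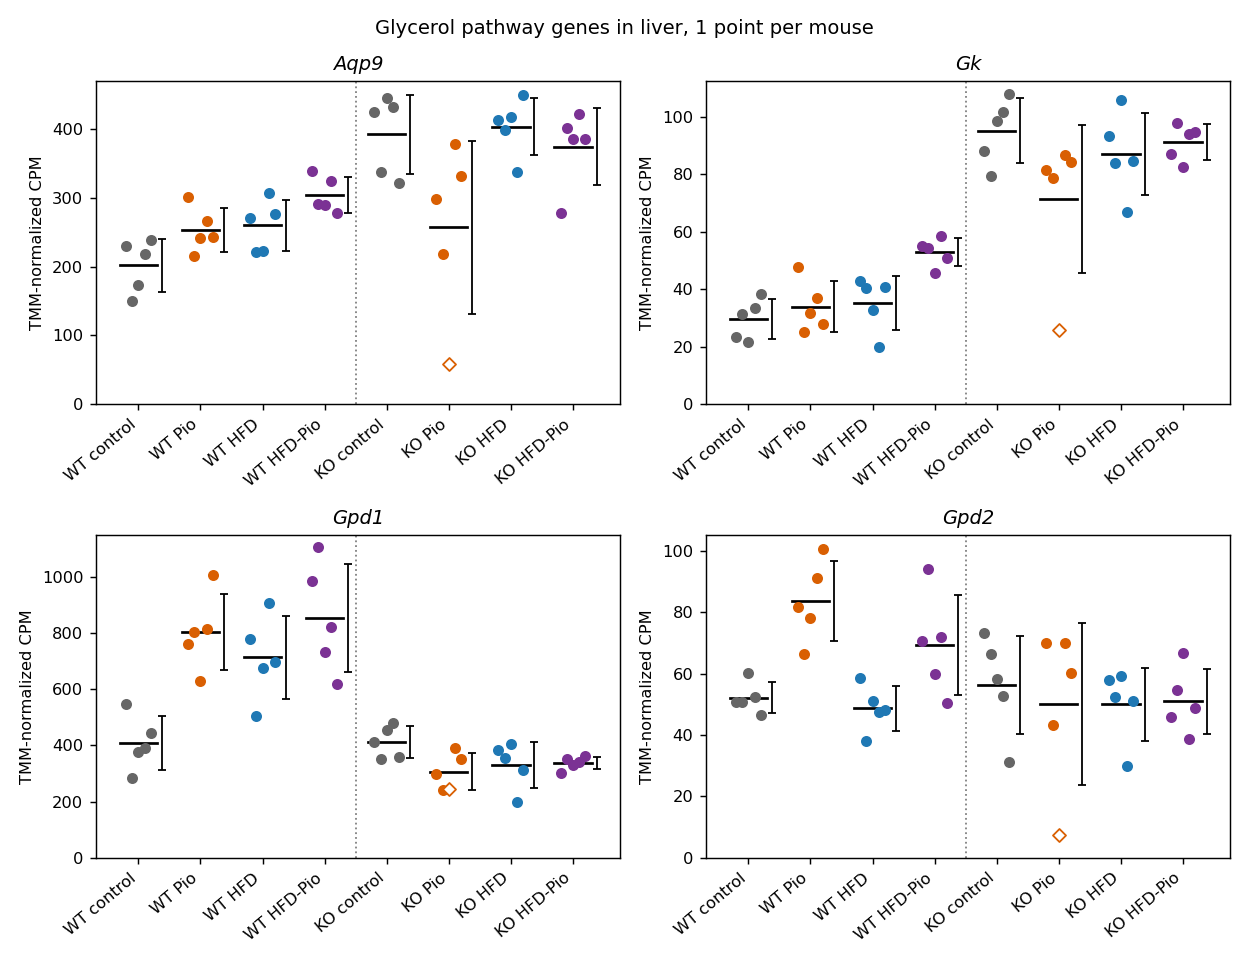
TMM CPM of the 4 tested genes in each mouse, on linear axes that start at 0. Points are mice, horizontal lines the means of 5 mice and bars the SD. The open diamond is KO Pio mouse 13, and the dotted line separates the WT from the KO table. All 5 WT Pio mice lie above all 5 WT control mice for Gpd1 and Gpd2, and all 5 WT HFD-Pio mice above all 5 WT HFD mice for Gk. How many of all tested genes separate in this way was not counted.

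Gpd2, the mitochondrial dehydrogenase, had no overlap between WT Pio and WT control mice, but its adjusted p depended on the estimate of the spread. The number of all tested genes without overlap was not counted. At an unadjusted p under 0.05 this comparison held 2314 of the 12942. WT control mice measured 50.7, 50.8, 60.3, 52.4 and 46.5 CPM and WT Pio mice 81.6, 66.4, 78.1, 91.1 and 101 CPM. The means were 83.6 ± 13.0 and 52.1 ± 5.05 CPM (SD, n = 5), a log2 fold change of 0.68 with a standard error of 0.30 (edgeR adjusted p = 0.211; exact permutation p = 0.00794). With KO Pio mouse 13 left out, which is in neither group but enters the spread shared by all groups, the change was 0.69 with a standard error of 0.19 (edgeR adjusted p = 0.0105). That fit called 15.5% of all tested genes in this comparison. It was also called when WT mice were fitted alone (0.68, edgeR adjusted p = 0.0116) and by limma with sample weights (0.67, limma adjusted p = 0.00850), and not by DESeq2.

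On HFD, Gpd2 was close to its control level, at 58.6, 38.05, 51.1, 47.6 and 48.2 CPM (log2 fold change -0.10, standard error 0.30, edgeR adjusted p = 0.938). WT HFD-Pio mice measured 70.6, 94.0, 59.7, 72.0 and 50.3 CPM, and 4 of 5 were above every HFD mouse (0.51, standard error 0.30, edgeR adjusted p = 0.418; exact permutation p = 0.0238). The level of Gpd2 in the HFD group thus lay within the range of the control group or below it in 5 of 5 mice. In KO mice the 4 group means ran from 50.03 to 56.3 CPM, with SDs from 10.5 to 26.3. Mouse 13 held 7.29 CPM against 43.2 to 70.1 in the other KO Pio mice, and the Pio effect on control diet went from -0.17 with it to 0.13 without it, neither called (edgeR adjusted p = 0.736 and 0.928).

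Gk, which phosphorylates glycerol, had its highest WT mean on HFD-Pio. WT HFD mice measured 42.7, 40.4, 32.6, 19.8 and 40.6 CPM and WT HFD-Pio mice 55.0, 54.3, 45.5, 58.3 and 50.9 CPM. No values overlapped, and how many of all tested genes separate in this way was not counted. At an unadjusted p under 0.05 this comparison held 2020 of the 12942. The means were 35.2 ± 9.43 and 52.8 ± 4.86 CPM (SD, n = 5), a log2 fold change of 0.58 with a standard error of 0.22 (edgeR adjusted p = 0.179; exact permutation p = 0.00794), where 1.08% of all tested genes were called. Without KO Pio mouse 13 it was 0.60 with a standard error of 0.17 (edgeR adjusted p = 0.0192, in a fit that called 11.6% of all tested genes), and limma with sample weights called it too (0.49, limma adjusted p = 0.0256).

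Against Pio on control diet, Gk on HFD-Pio was 0.64 higher on the log2 scale (standard error 0.22, edgeR adjusted p = 0.145; exact permutation p = 0.0159; 1.22% of all tested genes called), and this became a call without mouse 13 (0.63, edgeR adjusted p = 0.0157, 8.68% of all tested genes), without WT Pio mouse 841 (0.80) and by limma (0.70). On control diet, WT control mice measured 23.3, 31.4, 21.6, 33.5 and 38.1 CPM and WT Pio mice 47.6, 25.2, 31.6, 37.0 and 27.7 CPM. These overlapped (0.19, standard error 0.22, edgeR adjusted p = 0.713), as did HFD and control (0.25, standard error 0.22, edgeR adjusted p = 0.696). The Pio effect on HFD minus that on control diet was 0.39 (standard error 0.31, edgeR adjusted p = 0.657), so the data do not show that the Pio effect on Gk differed between the diets.

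Levels of Gk in the KO table ran from 66.9 to 108 CPM in the 19 mice other than mouse 13, which held 25.6 CPM, and from 19.8 to 58.3 CPM in the 20 mice of the WT table. Whether genotype or table sets this gap cannot be told apart. Within KO mice the group means were 95.1 ± 11.4 on control diet, 71.3 ± 25.7 on Pio, 86.9 ± 14.3 on HFD and 91.1 ± 6.24 CPM on HFD-Pio (SD, n = 5). No comparison among them was called, and the Pio effect on control diet was -0.42 with mouse 13 and -0.18 without it (edgeR adjusted p = 0.212 and 0.841).

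Aqp9, the glycerol channel of hepatocytes, was ordered from control through Pio and HFD to HFD-Pio in WT mice, with steps smaller than the test could separate. WT control mice measured 230, 151, 173, 218 and 239 CPM, WT Pio mice 302, 216, 242, 266 and 243, WT HFD mice 271, 222, 223, 308 and 277, and WT HFD-Pio mice 338, 291, 290, 325 and 278 CPM. Neighbouring groups overlapped. Log2 fold changes were 0.33 for Pio and 0.36 for HFD against control, 0.23 for HFD-Pio against HFD and 0.26 for HFD-Pio against Pio, each with a standard error of 0.24 (edgeR adjusted p from 0.519 to 0.691). The exact permutation p ran from 0.0317 to 0.0714.

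In KO mice Aqp9 measured 425, 338, 445, 432 and 322 CPM on control diet and 299, 218, 58.4, 378 and 332 CPM on Pio, the 58.4 being mouse 13. The Pio effect was -0.61 (standard error 0.24, edgeR adjusted p = 0.0920) with that mouse and -0.34 (standard error 0.15, edgeR adjusted p = 0.382) without it, and 9.01% and 0.51% of all tested genes were called in these fits. It was called without KO Pio mouse 14 (-0.79) or 15 (-0.72), and not without mouse 11 (-0.67) or 12 (-0.56). KO HFD and HFD-Pio mice averaged 404 ± 41.2 and 375 ± 56.3 CPM (SD, n = 5). The Pio effect on control diet in KO minus WT was -0.94 (standard error 0.34, edgeR adjusted p = 0.0734), and -0.68 without mouse 13 (standard error 0.20, edgeR adjusted p = 0.0405), so this difference was a call only in some fits.

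Counted over the 4 tested members, edgeR called 1 in WT Pio against control, 1 in WT HFD against control and 0 in each of the other 6 comparisons of 2 groups. At an unadjusted p under 0.05 the KO comparisons held 2 members for Pio against control (Aqp9 and Gpd1, both lower), 1 for HFD-Pio against Pio (Aqp9, higher) and 0 for each of the other 2, and DESeq2 and limma called 0 in each. Of all 12942 tested genes, 3577 and 3106 were under this p in the first 2 of these comparisons. These member counts are therefore not read as a result about the members. Without mouse 13 the member counts at an unadjusted p were 1 for Pio against control (Aqp9, lower) and 0 for HFD-Pio against Pio, where the log2 fold change of Aqp9 went from 0.54 to 0.28. All tested genes were not counted at an unadjusted p in that fit. The called shares of all tested genes in KO mice were 9.01% for Pio against control, 0.0155% for HFD-Pio against HFD, 0.185% for HFD against control and 4.96% for HFD-Pio against Pio. In the edgeR fit without mouse 13 the first and the last were 0.51% and 0.0927%. With mouse 13 kept, limma with sample weights called 1216 and 309 of all 12942 tested genes in these comparisons. The edgeR fit of KO mice alone called 0 in each. How far the KO calls depend on mouse 13 thus differed between tools. Without mouse 13 the member count rose to 2 in WT Pio against control (Gpd1 and Gpd2) and to 1 in both comparisons with WT HFD-Pio (Gk). The share of all tested genes called rose as well, from 3.91% to 15.5% in WT Pio against control, from 1.08% to 11.6% in WT HFD-Pio against HFD and from 1.22% to 8.68% against Pio. Effects that share a control group rest on the same 5 mice. The exact permutation p-values are unadjusted, with 48 computed over the members.

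**Figure D3:**
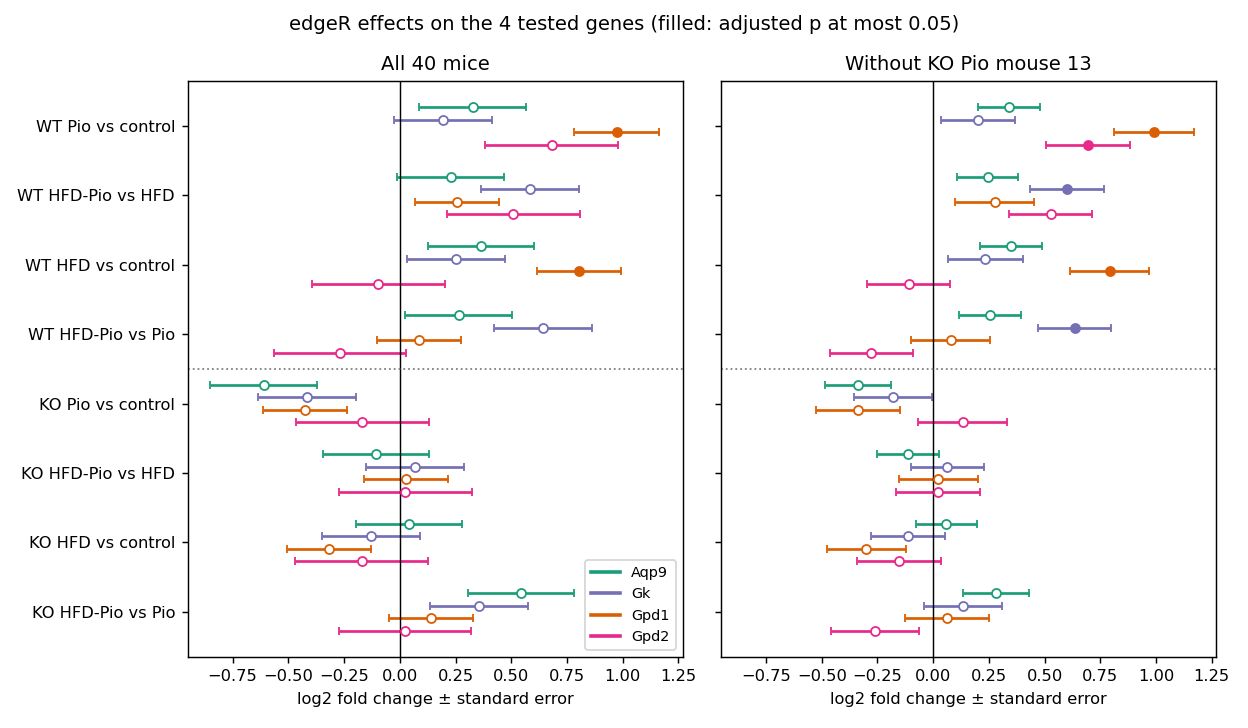
Log2 fold changes of the 4 tested genes with their standard errors in the 8 comparisons of 2 groups, from the fit of all 40 mice (left) and without KO Pio mouse 13 (right). Filled points have an edgeR adjusted p of at most 0.05. Gpd1 is filled for WT Pio (0.97) and WT HFD (0.80) on the left, Gpd2 for WT Pio (0.69) and Gk for WT HFD-Pio (0.60 and 0.63) are added on the right, and no point is filled in the KO comparisons.

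Aqp7, the glycerol channel of adipocytes, held 134 reads over all 40 libraries, with 32 mice showing at least 1. WT control mice held 1, 11, 1, 3 and 2 reads, WT Pio mice 5, 11, 4, 4 and 12, WT HFD mice 0, 2, 1, 0 and 0, and WT HFD-Pio mice 9, 24, 1, 5 and 5. WT groups that differed in drug alone or in diet alone overlapped. Of the HFD-Pio mice 4 of 5 lay above every HFD mouse, and 3 of 5 HFD mice lay below every control mouse. The 11 reads of WT control mouse 832 exceeded those of 3 of 5 Pio mice. As CPM the means were 0.132, 0.307, 0.0373 and 0.259 in the same order. A library with 0 reads allows a level of up to 3 reads, which is 0.0606 to 0.204 CPM over the 40 libraries by depth and covers counting error only. The exact permutation test gave p = 0.127 for Pio against control and p = 0.0238 for HFD-Pio against HFD. In an edgeR fit without the filter the adjusted p were 0.559 and 0.163. KO control mice held 1, 0, 1, 0 and 6 reads, KO Pio mice 2, 2, 0, 1 and 3, KO HFD mice 1, 1, 0, 0 and 1, and KO HFD-Pio mice 4, 1, 2, 1 and 6. In KO mice too, HFD-Pio lay above HFD in the mean, at 0.103 against 0.0258 CPM, with 3 of 5 mice above every HFD mouse (exact permutation p = 0.0794).

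Genes used as adipocyte markers were higher in the WT groups that received Pio. The summed level of the 8 adipocyte markers was 18.4 to 32.0 CPM in WT control and 20.7 to 101 CPM in WT HFD mice, against 155 to 662 CPM in WT Pio and 132 to 680 CPM in WT HFD-Pio mice. Of the 5 markers tested, 4 rose with Pio on control diet (Fabp4, Retn, Cfd and Cidea) and 3 on HFD (Retn, Cfd and Cidea). Of all tested genes 3.91% and 1.08% were called in these comparisons. Without mouse 13 Cfd was also called higher in WT HFD against control. Fabp4 and Retn were then called lower in WT HFD-Pio against Pio, where 8.68% of all tested genes were called. The defining adipocyte genes Adipoq, Plin1 and Lep held 5, 3 and 1 reads in total over the 5 WT Pio mice, and 10, 1 and 1 over the 5 WT HFD-Pio mice. Over the 5 WT control mice they held 4, 1 and 0 reads. Per KO group they held 21 to 36, 22 to 66 and 1 to 8 reads. Whether genotype or table sets the gap in Adipoq and Plin1 cannot be told apart. In KO mice the summed level was 13.1 to 46.3 CPM. In the 4 WT comparisons edgeR called 0 genes of the hepatocyte, endothelial, macrophage, cholangiocyte and stellate cell marker lists. At an unadjusted p under 0.05 each list held 0 to 2 genes, beside 1710 to 2314 of all 12942 tested genes. Of 5 muscle markers 0 passed the filter. Without mouse 13, the hepatocyte markers Apoa1 and Serpina1a were called lower in WT HFD-Pio against HFD, where 11.6% of all tested genes were called. In WT HFD against control Cps1 was then called lower and Apoa1 higher. Of 5 stellate cell markers, Lrat was called higher in WT Pio against control, where 15.5% of all tested genes were called. The part of such genes in the levels of Aqp7, Gpd1, Gpd2 or Gk was not tested. Less RNA per cell and fewer cells of a type cannot be told apart in whole liver.

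Aqp3 held 21 reads in all, 0 to 3 per mouse, with 25 of 40 mice at 0. Its totals by group were 3, 4, 1 and 3 reads in WT and 4, 2, 3 and 1 in KO mice, in the order control, Pio, HFD and HFD-Pio. It was not detectable above a few reads in any group, and no difference could be seen at this depth.

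**Figure D4:**
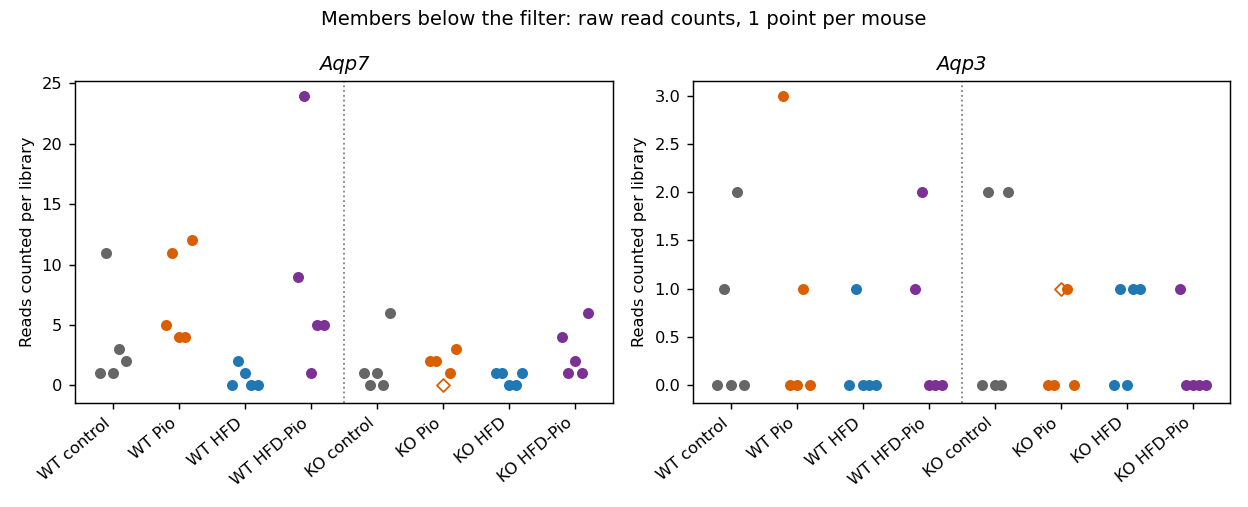
Reads counted per library for Aqp7 and Aqp3, the members below the filter, with 1 point per mouse in each of the 8 groups and the open diamond for KO Pio mouse 13. Aqp7 reaches 24 reads in WT HFD-Pio mice and at most 2 in WT HFD mice, and Aqp3 has 0 to 3 reads in every mouse. Reads are not scaled for depth. As CPM the highest Aqp7 values were 0.485 in WT HFD-Pio and 0.119 in WT HFD mice.

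The bases before the start of each gene were searched for AGGTCA, the motif read by nuclear receptors of the PPAR and RXR kind, on both strands in the 250 bases before 32851 RefSeq starts on GRCm38.p6. Of all these windows 14.0% held it. Windows were found for Aqp3, Aqp7, Aqp9, Gk and Gpd2 and not for Gpd1, and AGGTCA occurred in those of Aqp7. The tandem AGGTCANAGGTCA, of the spacing bound by PPAR and RXR pairs, occurred in 0.0335% of all windows and in none of these, and the looser AGGNCANAGGNCA in 0.338% and in none of these. The Aqp7 window with 2 matches, at chr4:41047963-41048212 on the minus strand, is shown because it alone among the members' windows held more than 1. The capitals mark TGACCT, the reverse complement of AGGTCA, and the last base is the one before the start.
Aqp7: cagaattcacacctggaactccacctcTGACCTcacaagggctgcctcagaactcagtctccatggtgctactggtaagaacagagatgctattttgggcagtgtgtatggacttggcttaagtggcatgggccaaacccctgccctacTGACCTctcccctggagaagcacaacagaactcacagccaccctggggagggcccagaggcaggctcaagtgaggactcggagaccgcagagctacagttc
The matches begin 223 and 101 bases before this start, and the window of another Aqp7 start, which overlaps it, holds the first of them. A match is a description of the letters and not a binding site.

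The enzymes around glycerol-3-phosphate were described from a list of 15 genes, of which 13 were tested. In the 4 WT comparisons of all 40 mice edgeR called 0 of them. At an unadjusted p under 0.05 there were 1 to 4, beside 1710 to 2314 of all 12942 tested genes. Gpam, the mitochondrial acyltransferase that starts triglyceride synthesis from glycerol-3-phosphate, stood 1.13 higher on the log2 scale with Pio on control diet (edgeR adjusted p = 0.0503), and Gpat4, an acyltransferase of the endoplasmic reticulum, 0.44 higher (edgeR adjusted p = 0.0595). These were the nearest to the threshold and were chosen after their values were seen. Without mouse 13 both were called, as was the fall of G6pc, glucose-6-phosphatase, where 15.5% of all tested genes were called. In that fit Gpat4 was also called higher in WT HFD-Pio than HFD (0.46), where 11.6% of all tested genes were called. In WT HFD-Pio against Pio, Gpam was called lower (-1.24) and Pck1, which starts gluconeogenesis from oxaloacetate, higher (0.77), beside 8.68% of all tested genes. The Pio effect on HFD minus that on control diet in WT mice was then called as higher for Pck1 (0.98, edgeR adjusted p = 0.0498) and for G6pc (edgeR adjusted p = 0.0277), and 0 of the 13 were called in WT HFD against control, with 6 at an unadjusted p under 0.05. The number of all tested genes under that unadjusted p was not counted in the fit without mouse 13. The calls in that fit are not read as a result about the list. The list's median log2 fold change for Pio was -0.17 on control diet and 0.34 on HFD, beside -0.02 for all tested genes on either diet.

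In KO mice on control diet, Gpat4 fell with Pio by 0.52 on the log2 scale (edgeR adjusted p = 0.0226), and the Pio effect in KO minus WT was -0.96 (edgeR adjusted p = 0.00382), which was -0.88 without mouse 13 (edgeR adjusted p = 0.00316). Without that mouse the KO change alone was -0.42 (edgeR adjusted p = 0.140). Pgp, a phosphatase that acts on glycerol-3-phosphate and phosphoglycolate, was called higher with Pio in KO mice at 1.61 (edgeR adjusted p = 0.0237) and lower in HFD-Pio than in Pio at -1.48 (edgeR adjusted p = 0.0420). Without mouse 13 these were 0.17 and -0.02 and not called, so they rest on that library. Its effect difference between genotypes, 2.13 (edgeR adjusted p = 0.0270), likewise became 0.68 (edgeR adjusted p = 0.210). Of all tested genes 9.01% were called in KO Pio against control and 4.96% in KO HFD-Pio against Pio. For the Pio effect on control diet KO minus WT the share was 7.87%. Without mouse 13 these shares were 0.51%, 0.0927% and 5.7%.

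The malate-aspartate shuttle, the other route by which the reducing power of cytosolic NADH reaches mitochondria, had 7 of 7 genes tested. Got1, its cytosolic aminotransferase, fell on HFD in WT mice from 393 ± 128 to 137 ± 38.8 CPM (SD, n = 5), a log2 fold change of -1.53 (standard error 0.30, edgeR adjusted p = 0.00508), while Gpd1 rose in the same comparison. With all 40 mice it was the only gene of this list called in a comparison of 2 groups. Of all tested genes 1.31% were called in WT HFD against control. Without mouse 13, Got2 was also called higher in WT Pio against control (15.5% of all tested genes called). Mdh1 and Got1 were then called higher in WT HFD-Pio against HFD (11.6% of all tested genes). Slc25a13 was called higher in WT HFD-Pio against Pio (8.68% of all tested genes). Got2, the mitochondrial aminotransferase, had a Pio effect on control diet that was 0.64 lower in KO than in WT mice on the log2 scale (standard error 0.17, edgeR adjusted p = 0.0236). Of 9 other aquaporins 4 were tested, and Aqp4, a water channel, was 1.98 lower on the log2 scale in KO Pio than KO control mice (edgeR adjusted p = 0.0147; -1.68 and edgeR adjusted p = 0.0645 without mouse 13). Its Pio effect in KO minus WT was -3.27 (edgeR adjusted p = 0.00416), at levels of 1.26 to 9.04 CPM as group means. Of all tested genes 9.01% were called in KO Pio against control. The Pio effect on control diet KO minus WT, which called Got2 and Aqp4, called 7.87%. Without mouse 13 Aqp4 was also called higher in WT Pio against control, where 15.5% of all tested genes were called. In KO HFD against control it was then called lower.

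Over the 20 WT mice, the genes with the closest pattern to each tested member by Pearson's r of log2 CPM, among 9280 genes of at least 5 CPM on average, were as follows. Etfdh (0.93), Decr2 (0.91) and Map1lc3a (0.89) were closest to Aqp9. Spopl (0.92), Ephx2 (0.87) and Ttpa (0.87) were closest to Gk. Chrna2 (0.94), Vwa8 (0.93) and Pctp (0.93) were closest to Gpd1, and Asah2 (0.89), Mme (0.89) and Vps13b (0.87) to Gpd2. These values are descriptions across mice that share groups, libraries and depth. In the 19 KO mice other than mouse 13 they ran from 0.29 for Spopl with Gk to 0.80 for Mme with Gpd2. The genes were chosen for their r in the WT mice, so that some fall of r in other mice is built into the choice. Whether the choice accounts for all of the fall was not tested. Between members, the correlation over the 20 WT mice was 0.80 for Aqp9 and Gpd1, and 0.60 after the group means were removed. For Gpd1 and Gpd2 it was 0.58 both over all 20 mice and after the group means were removed. For Gk it was 0.57 with Aqp9 and 0.31 with Gpd1, and within groups 0.19 and -0.27.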

How the data were processed

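The authors selected poly-A RNA, aligned reads to GRCm38 with STAR (2.0.4b in the submitters' processing notes) and counted reads per gene with featureCounts (1.4.5). The deposited values are whole-number counts without normalization, with 1 table per genotype. Here the tables were joined by Ensembl identifier (repeated lines were identical), and 355 rRNA genes were removed. Genes needed 1 CPM in at least 5 of 40 mice, which kept 12942. In R 4.3.3, edgeR 4.0.16 fitted 8 group means to TMM-scaled counts with the robust quasi-likelihood test, a check of which was made on simulated data. P-values were adjusted by Benjamini-Hochberg over all tested genes in each comparison and called at 0.05 or less. Log2 CPM used a prior count of 2. Exact permutation tests compared 5 mice with 5, two-sided. Alternatives were limma 3.58.1 with sample quality weights, DESeq2 1.42.0, DESeq2-style size factors in edgeR, no filter, each genotype fitted alone, and each mouse left out in turn. The fit of the gene lists without KO Pio mouse 13 was added after seeing the data. Values per mouse, permutation tests and plots were made in Python 3.11.15 (scipy 1.17.1 for the tests, matplotlib 3.10.9 for the plots). Members and gene lists were chosen with earlier results of these data known. All 6 members were named, up to 4 called genes of each neighbour list per comparison, and the 3 genes most correlated with each tested member. Labels name separate mice as replicates, and no sample was grouped by its values. Depths are given with the results, and protein sequences were not used here.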

Additional observations from a re-analysis of the deposited data

Results flagged for a closer look

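In groups of 5 mice a value was set aside for a second look when its gap to the nearest mouse exceeded 0.71 of the group's range, which chance gives for about 1 in 20 groups, and 32 groups of the tested members were examined. Aqp9 in KO HFD-Pio mouse 16 was 277 CPM, below the nearest mouse at 386 CPM. Gk in KO Pio mouse 13 was 25.6 CPM, below the nearest at 78.5 CPM, and this is the library that stood apart across all genes. Gpd2 in KO HFD mouse 9 was 29.7 CPM, below the nearest at 51.0 CPM. The Pio effect on Gpd1 on control diet differed between KO and WT mice by -1.40 on the log2 scale by edgeR's contrast of 4 group means. The genotypes have separate count tables, and the part of the table in this difference cannot be told apart from that of genotype.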

How the results depend on the processing

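No paired analysis was possible because the groups share no mouse numbers. The Pio effect on Gpd1 in WT mice on control diet kept its direction and call under 45 of 45 alternatives, and its difference between genotypes under 44 of 44, since a genotype fitted alone gives no such difference. Over the tested members, 244 of the values under other tools and settings stayed on the same side of the threshold with the same sign, as did 2199 of those with 1 mouse left out. The cause of the changes below was not tested.

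Limma with sample weights gave further calls for Gpd2 in WT Pio against control (0.67), Gk in WT HFD-Pio against HFD (0.49) and against Pio (0.70), Aqp9 for the Pio effect on control diet KO minus WT (-0.53), and, for the HFD effect KO minus WT, Gpd1 without Pio (-0.91) and Gk with Pio (-0.58). With it, 2 members were called in WT Pio against control, 1 in WT HFD-Pio against HFD, 1 against Pio, 2 for the Pio effect on control diet KO minus WT, and 1 each for the HFD effect KO minus WT without and with Pio. Of all 12942 tested genes limma called 3095, 1087, 2937, 1998, 185 and 975 in these contrasts, in that order. The main fit called 506, 140, 158, 1018, 8 and 2. It turned the sign of values that no fit called: Gpd2 in KO Pio against control (0.081), Gpd1 (-0.098), Gk (-0.0058) and Gpd2 (-0.075) in KO HFD-Pio against HFD, Gpd2 in KO HFD-Pio against Pio (-0.28), the Pio effect on HFD minus that on control diet of Aqp9 in WT (0.051) and of Gpd2 in KO mice (-0.16), and the HFD effect with Pio KO minus WT of Gpd1 (-0.16), Gpd2 (-0.043) and Aqp9 (-0.062). DESeq2 called Aqp9 (-0.95) beside Gpd1 for the Pio effect on control diet KO minus WT, 2 members in all, and Gpd1 (-1.12), 1 member, for the HFD effect without Pio. Of all 12942 tested genes DESeq2 called 1392 and 91 in these contrasts. WT mice fitted alone called Gpd2 with Pio (0.68), 2 members in all, beside 927 of all 12942 tested genes. Without the filter Gpd1 in WT HFD against control (0.76) was not called, which left 0 members.

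With each mouse left out in turn, Gpd2 in WT Pio against control ranged from 0.61 to 0.75, Gk in WT HFD-Pio from 0.43 to 0.66 against HFD and from 0.55 to 0.80 against Pio, and Gpd1 from 0.69 to 0.91 in WT HFD against control and from -0.026 to 0.18 in WT HFD-Pio against Pio. In KO mice, Pio against control ranged from -0.32 to 0.13 for Gpd2 and from -0.79 to -0.34 for Aqp9, HFD against control from -0.023 to 0.094 for Aqp9, HFD-Pio against HFD from -0.11 to 0.11 for Gpd1, from -0.010 to 0.15 for Gk and from -0.11 to 0.11 for Gpd2, and HFD-Pio against Pio from -0.26 to 0.17 for Gpd2 and from 0.28 to 0.72 for Aqp9, the last called without KO Pio mouse 14. The KO difference in the Pio effect between diets ranged from -0.11 to 0.35 for Gpd2. Between genotypes, KO minus WT, the Pio effect on control diet ranged from -1.12 to -0.68 for Aqp9, called without KO Pio mouse 11, 13, 14 or 15. The HFD effect without Pio ranged from -1.22 to -0.97 for Gpd1, called without WT control mouse 831, WT HFD mouse 827 or KO Pio mouse 13, and from -0.23 to 0.078 for Gpd2. The HFD effect with Pio ranged from -0.053 to 0.16 for Gpd1. Members called ranged from 1 to 2 in WT Pio against control and for the Pio effect on control diet KO minus WT, and from 0 to 1 in the other WT comparisons, in KO Pio against control, in KO HFD-Pio against Pio and for the HFD effect without Pio KO minus WT. Aqp3 and Aqp7 are limited by depth.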
